A study of Rattus norvegicus with 4 samples.

Results

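The lateral and the ventral lobe of the prostate were compared in TRAP rats given OBP-801, a compound that inhibits histone deacetylases. The comparison rests on the 2 arrays titled for lateral and ventral prostate under OBP-801, out of 4 arrays in the series, with 1 array a side and no replicate. The other arrays hold the lateral and the ventral lobe under saline. TRAP rats carry a transgene that drives the SV40 T antigen from the probasin promoter in prostate epithelium, and every group carried it, so no array stands for a prostate without the transgene. All rats were male, 6 weeks old at the start, fed a control diet, and injected intravenously 2 times a week for 8 weeks with OBP-801, or with saline. The dose was 1 mg/kg per the treatment protocol and 1 mg per the sample labels. The number and identity of the rats behind each array are not stated.

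MicroRNAs are short RNAs that lower the output of messenger RNAs, which they find mainly through the seed, bases 2 to 8 of the mature strand. Many are restricted to a cell type, so that the miRNAs of a bulk tissue sample follow both its cell composition and the state of its cells. The prostate lobes of the rat are glands of luminal and basal epithelium wrapped in smooth muscle and fibroblasts. In bulk tissue, fewer cells of a type and less of a miRNA per cell cannot be told apart.

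RNA carrying the dye Hy5 was measured on 1-colour arrays with 1 spot for each of 679 rat miRNA probes. The signal is the median intensity of a spot. Detection required a signal more than 2 SD over the average blank spot of the same array, which set the limit at 129 in lateral and 116 in ventral OBP-801. By this limit 329 probes were detected in lateral and 290 in ventral prostate, of which 271 in both, 58 in lateral only, 19 in ventral only and 331 in neither. The median signal of all miRNA probes was 128 in lateral and 109 in ventral prostate, and the blank spots averaged 109.4 and 100.1. The miRNA probes were therefore brighter on the lateral array before normalization, by a median of 0.28 on the log2 scale over the 271 miRNAs. The spike control spots were not, with averages of 35731.5 in lateral and 36115.9 in ventral OBP-801. With scaling on them the median was 0.295, and the source of the shift was not tested. Differences below are lateral minus ventral on a log2 scale after background correction and quantile normalization, which removes that shift. With 1 array a side there is no p-value for a lobe under OBP-801, and the number of arrays limits the precision. The files' names pair the arrays by lobe, so if the names mark slides, slide and lobe cannot be told apart.

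The mature strands shown here, with the seed in capitals, are a selection: the muscle miRNAs and miR-10b, which were higher in lateral prostate, and the relatives miR-195, miR-497, miR-15b and miR-16, whose lobe differences are compared below. They are RefSeq sequences from its GRCr8 table, matched by miRNA name and arm, which gave a strand for 17 of the 18 miRNAs past 1.5-fold, all but miR-200a. The muscle miRNAs miR-133a and miR-133b differ by the single substitution G22A, counted from the 5′ end with the base of the first-named miRNA given first.
miR-133b: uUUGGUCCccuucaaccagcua
miR-133a: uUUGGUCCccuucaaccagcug
miR-145: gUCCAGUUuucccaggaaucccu
miR-143: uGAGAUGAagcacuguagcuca
miR-10b: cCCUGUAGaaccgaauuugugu
miR-195: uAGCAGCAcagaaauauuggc
miR-497: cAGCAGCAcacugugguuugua
miR-15b: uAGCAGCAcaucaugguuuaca
miR-16: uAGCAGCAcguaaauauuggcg

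The strands of the miRNAs lower in lateral prostate by at least 1.5-fold follow, with both members of the miR-146 pair, which share a seed, and with the miR-221 and miR-222 pair just short of that limit. Those of let-7a and let-7c are shown beside let-7f because the probes of this family target nearly equal sequences. From let-7a to let-7f the substitution is G12A, and from let-7a to let-7c it is A19G. The seed is again in capitals.
miR-182: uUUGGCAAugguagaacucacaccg
miR-125b-5p: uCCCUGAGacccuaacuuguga
miR-146a: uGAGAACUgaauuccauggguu
miR-146b: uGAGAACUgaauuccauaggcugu
let-7f: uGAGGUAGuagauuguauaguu
let-7a: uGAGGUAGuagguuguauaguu
let-7c: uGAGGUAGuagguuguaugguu
miR-34a: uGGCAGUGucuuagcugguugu
miR-223: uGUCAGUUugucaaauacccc
miR-221: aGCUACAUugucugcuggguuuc
miR-222: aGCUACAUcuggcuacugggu

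After OBP-801, lateral prostate had more of the muscle miRNAs miR-133b and miR-145 and less of the epithelial miR-182 than ventral prostate, each by at least 2-fold. These were 2 higher (0.738%) and 1 lower (0.369%), or 1.11% either way, of the 271 miRNAs detected on both arrays. At 1.5-fold, 11 were higher (4.06%) and 7 lower (2.58%), and these 18 (6.64%) are described in turn below. Across all 271 the median difference was -0.01, the robust SD (from the median absolute deviation) was 0.21, and the differences ran between -1.20 and 1.10. That spread holds both lobe differences and array noise, which the design does not separate. Without normalization between arrays the split at 2-fold was 8 higher and 0 lower, and with scaling on the spike controls 9 higher and 0 lower. In the deposited value table it was 46 higher and 1 lower around a median of 0.50. Relative to the median of each setting, all 18 kept their direction under every one of the 13 alternatives that gave them a value.

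**Figure D1:**
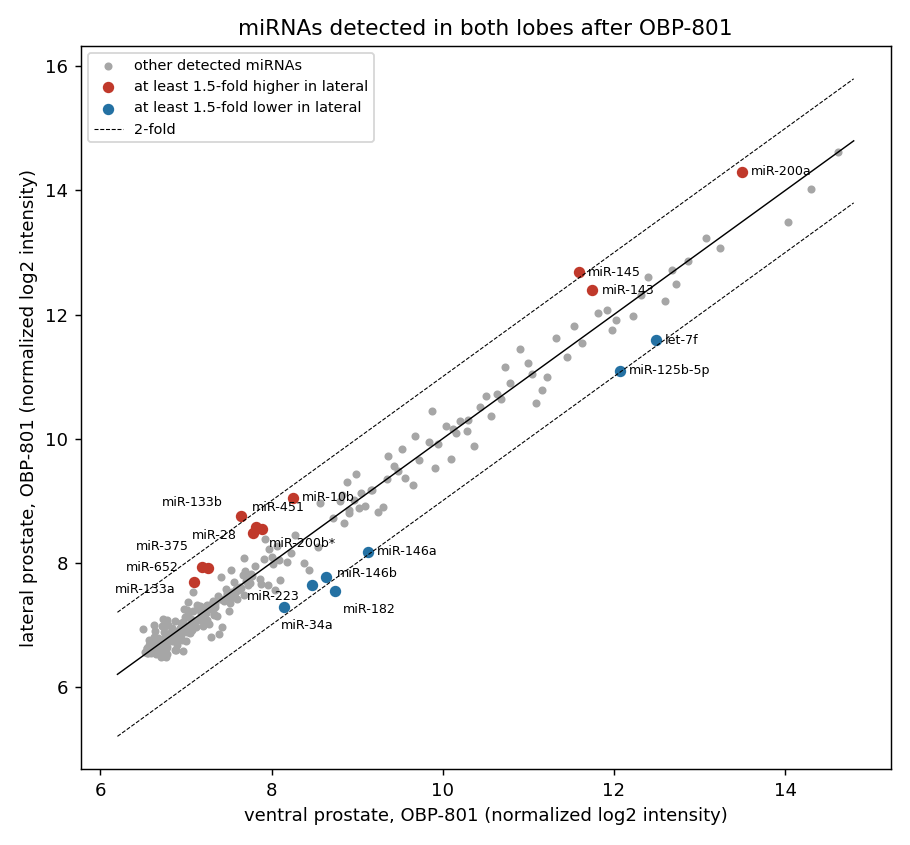
Normalized log2 intensity of the 271 miRNAs detected on both OBP-801 arrays, lateral prostate on the y axis and ventral prostate on the x axis. The solid line marks equal values and the dashed lines 2-fold. The 11 miRNAs at least 1.5-fold higher in lateral prostate are red and the 7 at least 1.5-fold lower are blue, and miR-133b, miR-145 and miR-182 lie beyond the dashed lines.

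Among the miRNAs of muscle, miR-133b, a miRNA of skeletal and cardiac muscle, had the largest difference. Its spot signal was 523 in lateral and 211 in ventral OBP-801, and 375 in lateral and 189 in ventral saline. Both lateral arrays were above both ventral arrays. The normalized difference was 1.10 under OBP-801, or 2.14-fold, and 1.09 under saline. Its near-identical relative miR-133a had signals of 279 in lateral and 159 in ventral OBP-801, and 288 in lateral and 163 in ventral saline. That is a difference of 0.59 under OBP-801 and of 0.88 under saline. The probes target strands that differ in the last base, so their signals may not be independent.

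The third miRNA of this kind, miR-1, which is transcribed with miR-133a, was detected on the lateral arrays only. Its signal was 200 in lateral and 98.7 in ventral OBP-801, and 193 in lateral and 109 in ventral saline. Since the ventral spot was below the limit, the difference under OBP-801 has a bound of at least 1.59-fold. The remaining members of the striated muscle list gave less: miR-206, of skeletal muscle, had 148 in lateral and 107 in ventral OBP-801, and 149 in lateral and 166 in ventral saline, where its difference was -0.28, while miR-208 and miR-499, of the heart, were detected on neither OBP-801 array and miR-208* only on the ventral one. Of the 11 listed probes, 2 were detected on both OBP-801 arrays and both passed 1.5-fold, against 4.06% of all miRNAs. After subtraction of the blank level, with no normalization, the list's summed signal was 727 in lateral and 160 in ventral OBP-801, and 582 in lateral and 216 in ventral saline. The part of striated muscle tissue in these differences was not tested.

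Of the smooth muscle pair miR-143 and miR-145, which are made from a single cluster and maintain the contractile state of smooth muscle, both were higher in lateral prostate under OBP-801. miR-145 had a signal of 8084 in lateral and 3148 in ventral OBP-801, and 2821 in lateral and 2888 in ventral saline. The lateral OBP-801 array was thus high and the other 3 arrays were close together. The normalized difference was 1.09 under OBP-801, or 2.13-fold, and -0.38 under saline. For miR-143 the signal was 7378 in lateral and 3267 in ventral OBP-801, and 5500 in lateral and 2662 in ventral saline. Here both lateral arrays were above both ventral arrays, with differences of 0.64 under OBP-801 and 0.80 under saline. After normalization the cluster's members were thus both higher in lateral prostate under OBP-801 and of opposite sign under saline. The saline sign of miR-145 rests on normalization, since its difference there was -0.04 when not normalized, against 1.05 for miR-143.

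The minor arms were closer between the lobes under OBP-801, with 0.22 for miR-145* and 0.10 for miR-143*. The fibroblast miRNAs of the same marker list did not share the direction: miR-199a-3p had -0.39, miR-199a-5p -0.14 and miR-214 0.00. Of the 7 smooth muscle and fibroblast markers detected on both arrays, 2 passed 1.5-fold upward, against 4.06% of all miRNAs, and 0 downward, against 2.58%. Their median was 0.10, against -0.01 over all miRNAs. Under saline the list had 2 members above and 4 below 0, with a median of -0.19. Of all 255 miRNAs detected on both saline arrays, 114 were above and 141 below 0, with a median of -0.04. The endothelial miR-126 and miR-126* had 0.09 and 0.12.

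**Figure D2:**
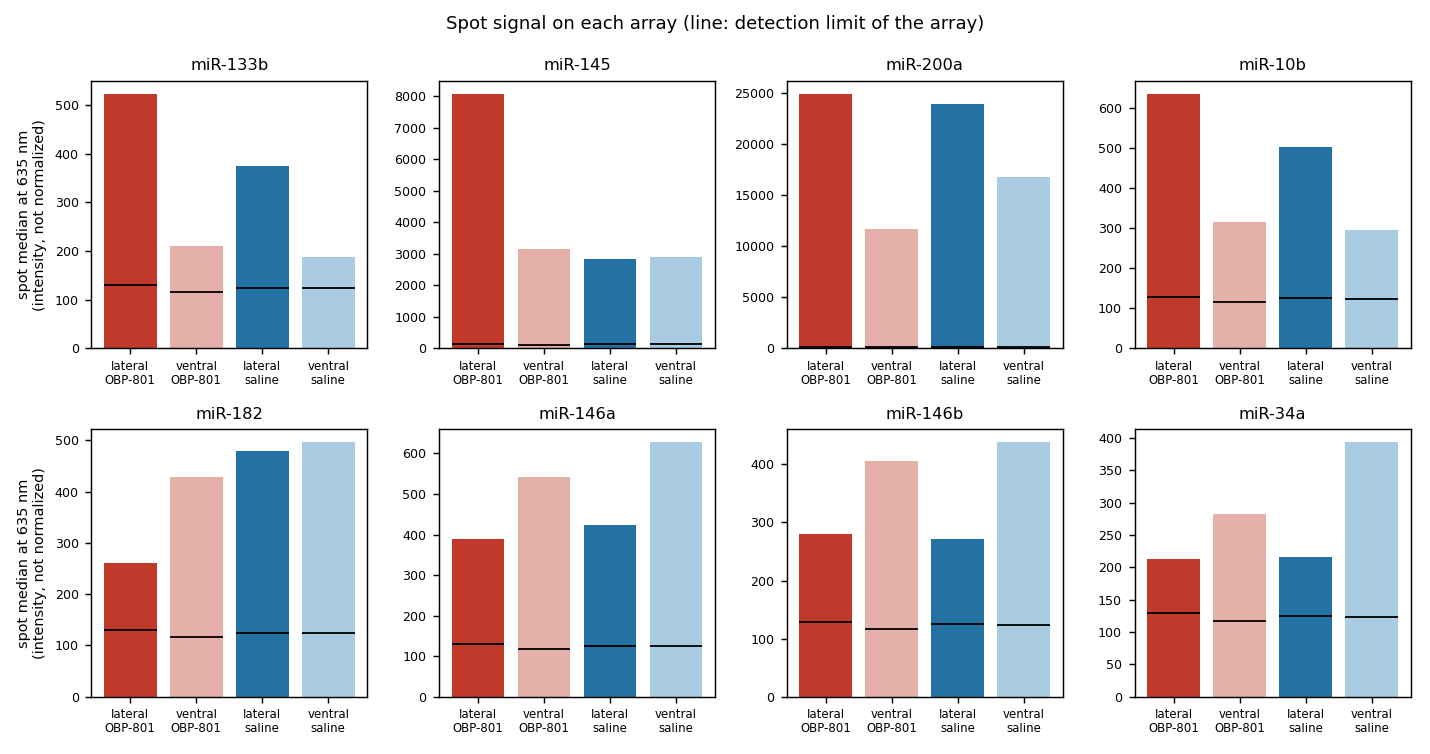
Spot median intensity, not normalized, of 8 miRNAs on the 4 arrays, with the array's detection limit as a black line and the y axis starting at 0. The lateral bars are the higher ones under both agents for miR-133b, miR-200a and miR-10b and the lower ones for miR-182, miR-146a, miR-146b and miR-34a, while for miR-145 the lateral OBP-801 bar (8084) stands above the other 3.

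Epithelium is marked by the miR-200 and miR-141 family, which keeps the epithelial state by repressing ZEB factors. Of its 9 probes 8 were detected on both OBP-801 arrays, and 7 of the 8 had a difference above 0, against 42.8% of all miRNAs, while 0 were below 0. The median was 0.39, against -0.01 over all miRNAs, and 2 members were at least 1.5-fold higher, against 4.06% of all miRNAs. Under saline 7 of 8 were above 0, with a median of 0.29, against 114 of all 255 miRNAs above 0 and a median of -0.04. Relative to the median of all miRNAs the family's median stayed above 0 in all 13 alternatives, between 0.34 and 0.62.

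Within the family, miR-200a had a signal of 24885 in lateral and 11684.5 in ventral OBP-801, and 23839 in lateral and 16779 in ventral saline. The ventral OBP-801 array was the lowest of the 4. Its difference was 0.81 under OBP-801 and 0.27 under saline, and it was 0.28 under OBP-801 with cyclic loess. The minor arm miR-200b* had 434 in lateral and 250 in ventral OBP-801, and 302 in lateral and 200.4 in ventral saline. Both lateral arrays were higher, with differences of 0.66 under OBP-801 and 0.64 under saline.

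The major arm miR-200b was the brightest miRNA on both OBP-801 arrays, with 38562 in lateral and 16479 in ventral prostate. Because it ranked first on both, quantile normalization sets its difference to 0.00, while without normalization it was 1.23. Its neighbour in the genome miR-429 had 0.55, and miR-141 and miR-200c, which share another cluster, had 0.44 and 0.20. The basal epithelial miR-205 went the other way, at -0.42 under OBP-801 and -0.38 under saline, and miR-203, of squamous epithelium, was at 0.02. Without normalization miR-205 was at 0.11 under OBP-801, below the median shift of 0.28.

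Outside the muscle and epithelial lists, miR-10b, which lies in a Hox gene cluster, had a signal of 636 in lateral and 316 in ventral OBP-801, and 502 in lateral and 295 in ventral saline. Both lateral arrays exceeded both ventral arrays, by 0.80 under OBP-801 and 0.76 under saline. Its close relative miR-10a-5p, of another Hox cluster, had -0.17 under OBP-801 and 0.56 under saline. miR-28 had 422 in lateral and 238 in ventral OBP-801, and 335 in lateral and 217 in ventral saline, with differences of 0.69 and 0.62. The lobe difference of miR-10b and of miR-28 was thus of like size under both agents.

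The other 3 miRNAs past 1.5-fold upward had a smaller lobe difference under saline. Erythroid miR-451, a marker of blood, had 438 in lateral and 242 in ventral OBP-801, and 292 in lateral and 252 in ventral saline. Its differences were 0.75 under OBP-801 and 0.16 under saline. It was the only erythroid marker detected on both OBP-801 arrays, since miR-144 was not detected, and the part of blood in this result was not tested.

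For miR-652 the signal was 313 in lateral and 166 in ventral OBP-801, and 258 in lateral and 225 in ventral saline, a difference of 0.75 under OBP-801 and 0.06 under saline. miR-375, which marks secretory and neuroendocrine cells, had 307 in lateral and 172 in ventral OBP-801, and 253 in lateral and 211 in ventral saline. Its differences were 0.65 under OBP-801 and 0.16 under saline. The other members of its marker list did not share this, and 4 of the 5 detected were below 0, against 52.4% of all miRNAs. Among these were miR-7a at -0.21, miR-9 at -0.31 and miR-9* at -0.05. The list's median was -0.21, against -0.01 over all miRNAs. The opposite arm of the same precursor, miR-375*, had the brighter spot on both arrays, with 761 in lateral and 756 in ventral OBP-801. It was at -0.41 under OBP-801, a gap of 1.06 between arms that was the largest among the 49 arm pairs with both probes detected. Among these pairs, 31 had arms of the same sign and 14 of opposite sign.

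Lower in lateral prostate was above all miR-182, of the miR-183, miR-96 and miR-182 cluster that is found in sensory and glandular epithelium. Its signal was 260 in lateral and 429 in ventral OBP-801, and 479 in lateral and 497 in ventral saline. The lateral OBP-801 array was low and the other 3 lay close together. The normalized difference was -1.20 under OBP-801, or 2.30-fold lower, and -0.08 under saline. Its cluster neighbours did not share this, with 0.28 for miR-96 and -0.11 for miR-183, whose signal of 140 in lateral and 129 in ventral OBP-801 was near the limit.

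miR-125b-5p, a miRNA of the let-7 and miR-99 clusters that is linked to differentiation, had 2746 in lateral and 3988 in ventral OBP-801, and 3010 in lateral and 2781 in ventral saline. The ventral OBP-801 array was the high one, and the difference was -0.98 under OBP-801 and -0.16 under saline. The other 6 detected members of its family lay between -0.04 and 0.25. let-7f, of the let-7 family that restrains growth, had 3674 in lateral and 4565 in ventral OBP-801, and 5451 in lateral and 4997 in ventral saline. Its difference was -0.90 under OBP-801 and -0.29 under saline, while the other 7 major arms of let-7 and miR-98 lay between -0.24 and 0.17.

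Leukocyte miRNAs were lower in lateral prostate. Of the 10 leukocyte probes, 7 were detected on both OBP-801 arrays and 7 of 7 were below 0, against 52.4% of all miRNAs. Their median was -0.54, with 3 at least 1.5-fold lower, against 2.58% of all miRNAs. Under saline 6 of 7 were below 0, with a median of -0.53, against 141 of all 255 miRNAs below 0 and a median of -0.04. Relative to all miRNAs the list's median stayed below 0 in all 13 alternatives, between -1.16 and -0.42. The summed signal above blank, with no normalization, was 887 in lateral and 1318 in ventral OBP-801, and 935 in lateral and 1665 in ventral saline. The part of leukocyte content in this was not tested.

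The 3 past 1.5-fold were miR-146a, miR-146b and miR-223. miR-146a, which dampens inflammatory signalling, had 389 in lateral and 541 in ventral OBP-801, and 424 in lateral and 628 in ventral saline. Its differences were -0.95 under OBP-801 and -0.70 under saline. The second member of the pair, miR-146b, had 280 in lateral and 406 in ventral OBP-801, and 272 in lateral and 438 in ventral saline, with differences of -0.88 under either agent.

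miR-223, a miRNA of neutrophils and monocytes, had 264 in lateral and 356 in ventral OBP-801, and 224 in lateral and 509 in ventral saline. Both ventral arrays were higher, with a smaller gap under OBP-801, where the difference was -0.84, than under saline, where it was -1.45. The other blood cell miRNAs were miR-142-5p at -0.54, miR-142-3p at -0.39 and the lymphocyte miR-150 at -0.47, which had 0.09 under saline. The minor arm miR-150* was at -0.01.

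miR-34a, a target of p53 that slows the cell cycle, had a signal of 213 in lateral and 282 in ventral OBP-801, and 216 in lateral and 394 in ventral saline. The lateral arrays were close to each other and below both ventral arrays, by -0.87 under OBP-801 and -0.82 under saline. Just short of 1.5-fold were miR-221 and miR-222, which share a seed and a cluster and repress the cell cycle inhibitor p27. miR-221 had 301 in lateral and 340 in ventral OBP-801, and 306 in lateral and 419 in ventral saline, with differences of -0.57 under either agent. miR-222 had -0.50 under OBP-801 and -0.47 under saline. Of all 271 miRNAs, the 4 nearest to the 1.5-fold limit were miR-133a at 0.59, just inside, and miR-221 at -0.57, miR-195 at 0.56 and miR-429 at 0.55, just outside.

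**Figure D3:**
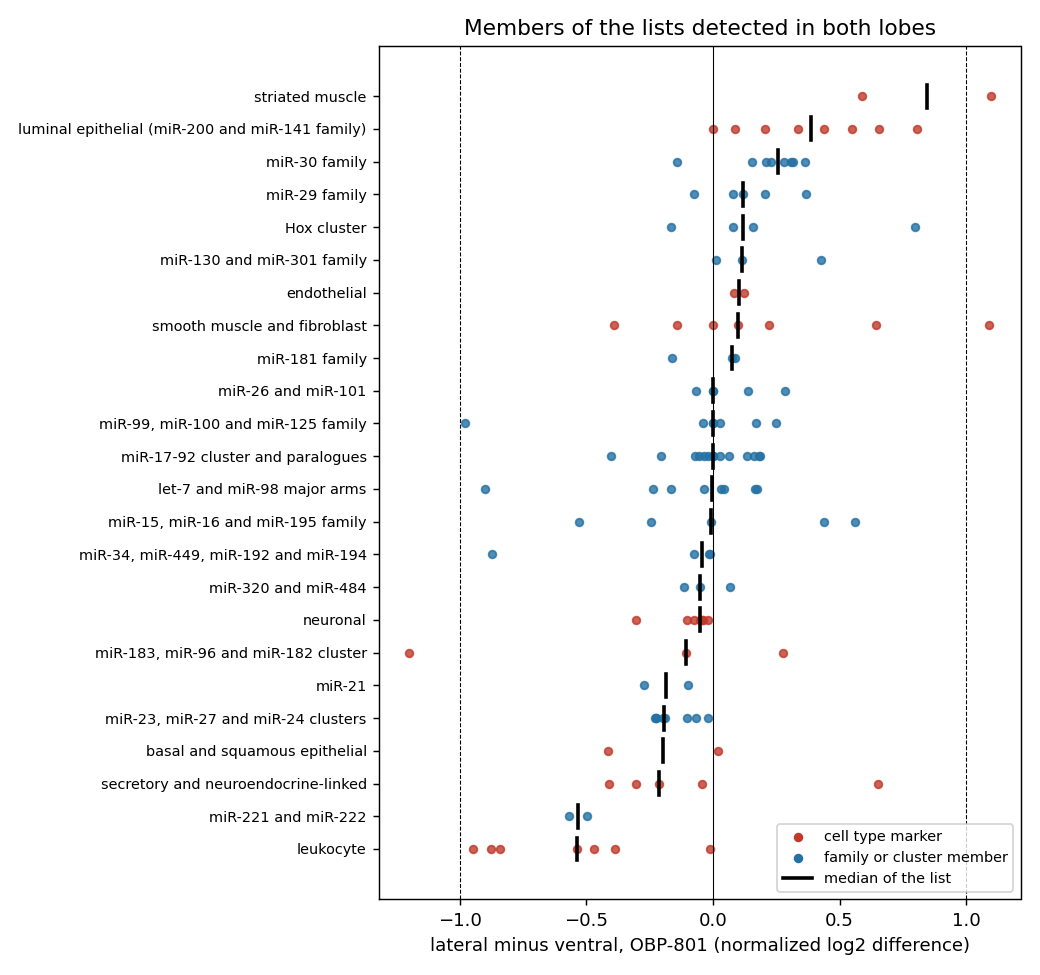
Lateral minus ventral difference (normalized log2) under OBP-801 of each member of the marker lists (red) and family lists (blue) detected on both arrays, with the median of each list as a black bar and 2-fold as dashed lines. Lists with at least 2 such members are shown. The miR-200 and miR-141 markers lie at or right of 0 and the leukocyte markers left of it.

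A shared seed did not go with a shared lobe difference in the miR-15, miR-16 and miR-195 family, which represses cyclins and BCL2 and carries the seed AGCAGCA shown above. miR-195 had a signal of 1731 in lateral and 812 in ventral OBP-801, and 1350 in lateral and 770 in ventral saline. Its cluster neighbour miR-497 had 895 in lateral and 484 in ventral OBP-801, and 704 in lateral and 470 in ventral saline. Both were higher on the lateral arrays, by 0.56 and 0.44 under OBP-801 and by 0.53 and 0.52 under saline. miR-15b, from another cluster, had 1977 in lateral and 1867 in ventral OBP-801, and 2343 in lateral and 1356 in ventral saline. Its difference was -0.53 under OBP-801 and 0.37 under saline, and miR-16 had -0.24 and -0.35. The other detected member of the list, miR-322, had -0.01 and -0.07. Relative to the median of all miRNAs, miR-15b stayed below 0 in the alternatives, between -0.53 and -0.20, while miR-16 lay between -0.35 and 0.01. Without normalization miR-15b was at 0.08 under OBP-801, above 0 but below the median shift of 0.28.

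The remaining families showed few large differences, and none of their members beyond those named passed 1.5-fold. The miR-30 family had 7 of 8 members above 0, against 42.8% of all miRNAs, and a median of 0.26, with miR-30a* at 0.37, miR-30e at 0.32 and miR-30c at 0.31, and under saline 4 above and 3 below 0 with a median of 0.13. The miR-23, miR-27 and miR-24 clusters had 8 of 8 members below 0, against 52.4% of all miRNAs, and a median of -0.19. Among them were miR-24 at -0.23 and miR-23b at -0.23, and under saline 6 of 8 were below 0. Of all 255 miRNAs detected on both saline arrays, 114 were above and 141 below 0, with a median of -0.04. The miR-17-92 cluster with its paralogues, associated with proliferation, had 6 members above and 6 below 0 of 15, with miR-17-5p lowest at -0.40. The miR-29 family, which represses collagens, had a median of 0.12 over 5 members. The miR-26 and miR-101 list had a median of 0.00 over 5. In the miR-130 and miR-301 family miR-130a had 0.43 under either agent. The miR-181 family had a median of 0.08 over 3.

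Abundant miR-21 had 18716 in lateral and 14402 in ventral OBP-801, a normalized difference of -0.27, while without normalization it was at 0.38, above the median shift of 0.28. miR-3584-5p, also among the 5 brightest on both arrays, had 14805 in lateral and 12912 in ventral OBP-801, and a difference of -0.53. miR-320, which matures without Drosha, had 235 in lateral and 175 in ventral OBP-801, a difference of 0.07, and miR-320* had -0.05. Of the neuronal list 7 of 7 detected probes were below 0, against 52.4% of all miRNAs. But the median was only -0.05, with miR-9 furthest at -0.31. Under saline 2 were above and 4 below 0, beside 114 above and 141 below among all 255 miRNAs. Neither OBP-801 array detected miR-122, of liver.

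For miRNAs detected in only 1 lobe after OBP-801, bounds were small. Of the 58 detected in lateral prostate only, miR-1 had the largest bound and miR-106b*, the minor arm of a proliferation-linked cluster, followed with at least 1.29-fold. The next were miR-673* with at least 1.21-fold, miR-212* with at least 1.17-fold and miR-10a-3p with at least 1.15-fold. Of the 19 in ventral prostate only, miR-301b had at least 1.31-fold and miR-380 at least 1.24-fold. miR-201, miR-29b-2* and miR-129 followed with at least 1.19-fold, 1.18-fold and 1.17-fold. Their spots were close between the lobes and near the limits of 129 in lateral and 116 in ventral OBP-801. The signal was 127.9 in lateral and 128.1 in ventral for miR-201, and 114.5 and 121.3 for miR-29b-2*. For miR-129 it was 125.5 and 124.0, so the lateral spot was the brighter. These bounds hold for normalized values only and are not firm minimum differences. When the limit was set from the negative control spots instead, 310 probes were detected in lateral and 325 in ventral OBP-801, so the order of the lobes in the number detected depends on which control spots set the limit.

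The saline arrays share no array with the OBP-801 pair, so that their lobe difference can be set beside it. Among the 242 miRNAs detected on all 4 arrays, the lobe differences correlated with Pearson's r = 0.50 and Spearman's rho = 0.41, given as a description, since miRNAs are not replicates and the pairs may share slides. The r lay between 0.33 and 0.60 over the alternatives. At 1.5-fold, 11 miRNAs were higher in lateral prostate under OBP-801 and 9 under saline (3.53% of the 255 detected on both saline arrays), of which 6 were in both, or 6 of the 11 and 6 of the 9. These included miR-133b, miR-143 and miR-10b. Of 7 lower under OBP-801 and 6 under saline (2.35%), 4 were in both, and these were miR-146a, miR-146b, miR-34a and miR-223. No miRNA passed 1.5-fold in opposite directions.

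**Figure D4:**
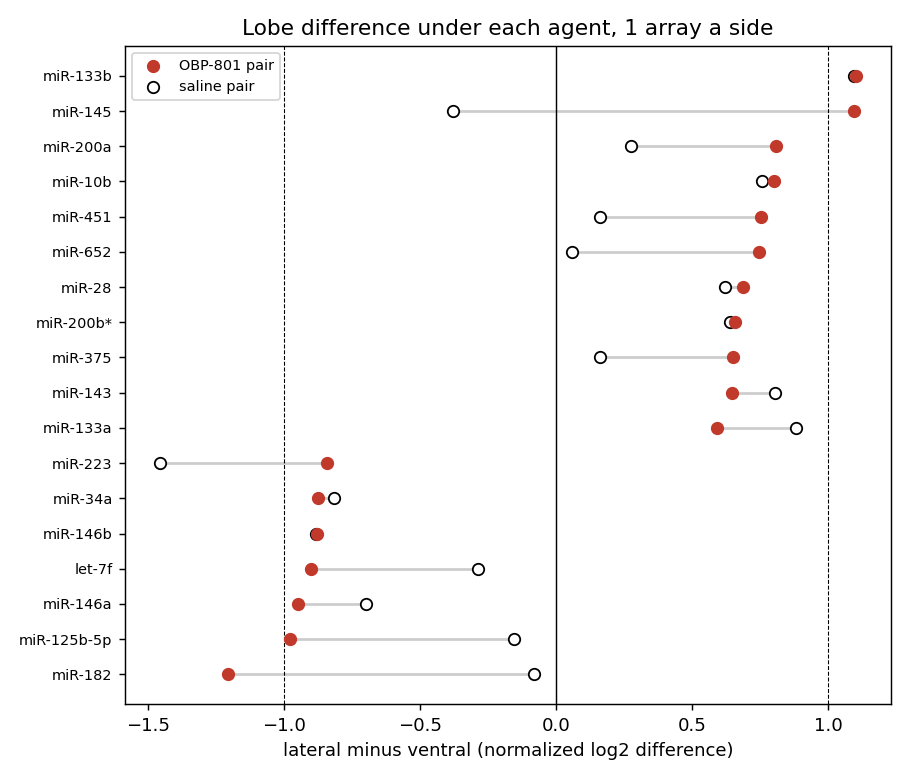
Lateral minus ventral difference (normalized log2) of the 18 miRNAs past 1.5-fold under OBP-801, in the OBP-801 pair (red) and in the saline pair (open), with 1 array a side. The points nearly coincide for miR-133b, miR-10b, miR-146b and miR-34a and lie apart for miR-145 (1.09 against -0.38) and miR-182 (-1.20 against -0.08).

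The lobe differences that were most unlike between the agents were those of let-7c and miR-145. For let-7c the signal was 12202 in lateral and 8922 in ventral OBP-801, and 10588 in lateral and 3068 in ventral saline. The ventral saline array was the low one, and the lobe difference was -0.17 under OBP-801 and 1.52 under saline, a gap of -1.69. let-7a, which differs from let-7c by A19G, went the opposite way, with 13022 in lateral and 8397 in ventral OBP-801, and 6762 in lateral and 9331 in ventral saline. Its lobe difference was 0.17 under OBP-801 and -0.90 under saline, a gap of 1.06. The signs of the OBP-801 differences of let-7a and let-7c depended on the processing. Over the alternatives let-7a lay between -0.09 and 0.66 and let-7c between -0.25 and 0.48. Both were higher in lateral OBP-801 when not normalized, by 0.635 for let-7a and 0.453 for let-7c.

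For miR-145 the gap was 1.47 and for miR-182 it was -1.12. Smaller gaps were 0.69 for miR-652, 0.66 for miR-494 and 0.62 for miR-106b. On the other side were -0.90 for miR-15b, -0.84 for miR-30e* and -0.82 for miR-125b-5p. No test of these gaps is possible, because with 1 array a group the lobe-by-agent difference leaves no residual degree of freedom.

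**Figure D5:**
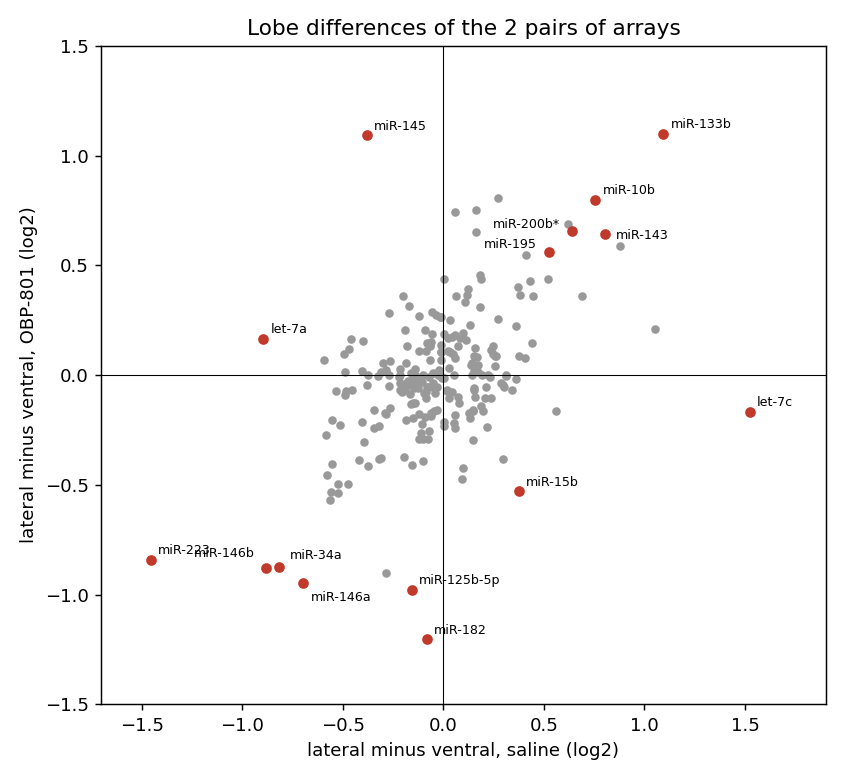
Lateral minus ventral difference (log2) of the 242 miRNAs detected on all 4 arrays, under OBP-801 on the y axis and under saline on the x axis, with 15 miRNAs named in red. miR-133b and miR-10b lie at the upper right and miR-146a, miR-146b, miR-34a and miR-223 at the lower left, while let-7c and miR-145 lie away from this diagonal.

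A test of the lobe was possible only over all 4 arrays, with agent as a second term. In this additive limma fit with Benjamini-Hochberg adjustment, 0 of 242 miRNAs passed an adjusted p of 0.05 (0%), while 43 (17.8%) had an unadjusted p under 0.05, of which 20 were higher and 23 lower in lateral prostate, beside 12.1 at random. The smallest adjusted p was 0.0572, for miR-133b, at 1.10 (SE 0.096) and higher on the lateral array in 2 of 2 pairs. It was followed by miR-146b at -0.88 (SE 0.096, adjusted p = 0.0585 in limma), miR-34a at -0.84 (SE 0.097, adjusted p = 0.0585) and miR-10b at 0.78 (SE 0.097, adjusted p = 0.0604), each with the same direction in 2 of 2 pairs. The fit has 1 residual degree of freedom, and the count past the adjusted threshold ranged between 0 and 59 over the alternatives. The residual is the gap between the pairs, so the fit favours miRNAs with like lobe differences under both agents.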

How the data were processed

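The deposited scanner files give spot and local background medians as intensity values, combined over 3 scanner gains per the file headers, neither corrected nor normalized. Labelling used the miRCURY LNA Array miR labeling kit per the labels' protocols; the scanner software is not stated there. The deposited value table holds intensity values processed by the authors in steps no label states: against the scanner values it is linear, with a median of 25 on each array, and dim spots are empty. Its scale relative to other arrays is unknown, so it served as an alternative.

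Background was corrected with limma's normexp (offset 50) on all 3136 spots, control spots were left out, 1 spot marked faulty (miR-26a, ventral saline) was dropped, and log2 values followed from quantile normalization across the 4 arrays (limma 3.58.1, R 4.3.3). The offset understates the differences of dim miRNAs. Each miRNA has 1 spot, so no spread between spots exists. The probe that names 2 miRNAs was kept in the counts and not named. A miRNA detected on 1 array of a pair has a bound, the bright value against the dim value or, if higher, the dim array's lowest detected value.

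Named were up to 15 miRNAs past 1.5-fold in each direction, up to 5 bounds and 5 gaps between agents in each direction, the 5 brightest of each array, and list members. The members, lists and rules were chosen with earlier results of these data known. The lobe fit used lmFit and eBayes with lobe and agent as terms (1 residual and 3.27 prior degrees of freedom). Its code was run on simulated data that held no lobe-by-agent difference, so that run does not bear on the fit's error in these data. With no statement that arrays came from separate rats, the p-values of the fit measure only the spread between these arrays. The 13 alternatives changed background correction, normalization, print position, the detection filter or the values. miRNA names follow the array design.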

Additional observations from a re-analysis of the deposited data

Results flagged for a closer look

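After quantile normalization, 3 miRNAs had lobe differences of opposite sign under OBP-801 and saline, with a gap of at least 2-fold. This was not tested because each group has 1 array. How far the signs held without normalization between arrays differed among the 3. let-7a kept opposite signs there, at 0.635 under OBP-801 and -0.468 under saline. Its OBP-801 difference ran between -0.09 and 0.66 over the alternatives. In values not normalized between arrays, let-7c was higher in lateral prostate under both agents, by 0.45 under OBP-801 and 1.80 under saline. On that scale miR-145 was at only -0.04 under saline. The gap, OBP-801 minus saline, was 1.47 for miR-145, 1.06 for let-7a and -1.69 for let-7c. Among spots outside the miRNA probes, those named QC-Probe averaged 253 in lateral and 191 in ventral OBP-801, above the blank-based limits of 129 and 116, although their medians were 118 and 102. The 8 spots named S-Probe2 averaged 138 in lateral OBP-801, above that array's limit, and 116.1 in ventral OBP-801. What these probes target is not given in the sources used here.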

How the results depend on the processing

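Counts of miRNAs higher and lower in lateral prostate depended on the processing, and the cause was not tested. Under OBP-801 the 2 higher and 1 lower at 2-fold became 8 and 0 with no normalization, 9 and 0 with spike scaling, 7 and 10 after plain subtraction of the blank level, 1 and 2 with cyclic loess, and 46 higher in the deposited value table. There was 1 higher with no background correction, and there were 3 lower with an offset of 16, and 2 lower with quantiles over the pair only or with print block medians removed. At 1.5-fold, the 11 higher and 7 lower became 27 and 26 with the blank level subtracted, 48 and 2 with no normalization, and 49 and 2 with spike scaling. The deposited value table gave 120 higher, cyclic loess 5 higher, and the offset of 16 gave 11 lower. Under saline the 3 higher and 1 lower at 2-fold became 7 and 6 with the blank level subtracted, 1 and 2 with cyclic loess, and 6 and 13 in the deposited value table, with 5 higher under spike scaling and 1 higher with no background correction or with the stricter filter.

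The additive fit called 0 miRNAs, and 0 also with the stricter filter and the negative control limit. It called 15 with no background correction, 25 with the blank level subtracted, 24 with an offset of 16, 28 with no normalization, 19 with median centring, 59 with spike scaling, 31 with cyclic loess, 7 with print block medians removed, 8 with no filter, 1 in the deposited value table and 13 with a trend in the prior variance. Of 233 values of the 18 named miRNAs under alternatives, 0 changed sign, 4 left and 29 entered the range beyond 2-fold. No paired analysis was possible because each group has a single array; the additive fit already holds agent as a term. A slide term could not be fitted beside the lobe. Dim miRNAs limit the comparison, since signals near the blank level have only bounds.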

Other observations

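The spread of the lobe differences under OBP-801 grew with signal, with a scaled SD of 0.14 in the dimmest 91 miRNAs detected on both arrays, 0.19 in the middle 90 and 0.31 in the brightest 90. Of the miRNAs past 1.5-fold, 0 were among the dimmest, 4 higher and 2 lower among the middle, and 7 higher and 5 lower among the brightest. Medians of the 16 print blocks lay between -0.13 and 0.19.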
